A study of Mus musculus with 6 samples.

Results

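Genomic imprinting silences the maternal or the paternal copy of a gene according to the parent it came from, under the control of DNA methylation laid down in the germ line. Imprinted genes lie in clusters, often together with a long noncoding RNA, and many of them act in growth, in placenta and in brain. *Sgce* and *Peg10* form one such cluster on mouse chromosome 6: both are read from the paternal allele, in opposite directions, from starts next to each other. *Sgce* encodes epsilon-sarcoglycan, a membrane glycoprotein of the dystrophin-associated complex that is best known in brain because loss of human *SGCE* causes myoclonus-dystonia.

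The data described here are the counts of 40 genes, imprinted genes and neighbours of imprinted genes, from 15 clusters. They are among 55487 genes counted in cultured mouse microglia. The 40 genes were listed by name. They were chosen by the measured rise of the *Sgce* transcript in Cre+ over Cre− cultures, so the values of *Sgce* are given as a description without a test. Of the 40 members, 19 exceeded 1 CPM (counts per 1000000 counts of the library) in at least 4 libraries and belong to the 11429 genes tested, and 21 were below this filter. Called means an adjusted p of at most 0.05 over all genes tested. The allele of origin cannot be read from these counts, nor whether a member is imprinted in microglia. The terms maternal and paternal refer to the allele known to be used in mouse, not to a measurement in these cells.

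The 6 libraries, 3 Cre− and 3 Cre+, came from primary cortical microglia of newborn CAG::CreERT2; *Nr1d1* fl/fl pups and of pups with the floxed alleles but no Cre. The CAG::CreERT2 line is on a C57/Bl6J background. All 6 cultures received 4-hydroxytamoxifen (4-OHT) at 1.5 μM for 2 days per the labels, so both groups carry floxed *Nr1d1* (the gene of the clock repressor REV-ERBα) and both saw the drug. The CAG promoter is active in all cell types, and the microglia were floated off mixed glial cultures grown with GM-CSF, so Cre was not limited to microglia. The effect of losing *Nr1d1* cannot be told apart from an effect of active CreERT2 itself.

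Total counts per library were 87545868 to 93942161 in Cre− and 93701215 to 110909129 in Cre+ cultures. *Nr1d1*, on chr11:98767932-98775333 of GRCm38, had 2.35, 1.20 and 1.64 CPM in Cre− and 1.00, 0.945 and 1.08 CPM in Cre+ libraries. These counts cover the whole gene and not the deleted exons alone. The adjusted p of edgeR's quasi-likelihood test for *Nr1d1* was 0.094. The defining microglial transcripts *Trem2* (1573 to 1657 CPM) and *Csf1r* (425.9 to 486.8 CPM) were high in all 6 libraries, whereas *Tmem119* stayed between 1.84 and 3.55 CPM. The summed microglial markers were slightly higher in Cre+ (3568 to 3687 CPM) than in Cre− libraries (3473 to 3561 CPM). All 7 neuronal and all 9 fibroblast and mural cell markers averaged under 1 CPM over the 6 libraries, with single values of up to 1.25 CPM, and none was at 0 throughout. Summed astrocyte and oligodendrocyte markers overlapped between the groups, while of the 5 endothelial markers *Flt1* was higher in Cre+ (23.1 to 26.5 CPM) than in Cre− libraries (19.4 to 20.5 CPM) and the other 4 had lower means. In bulk RNA, more cells of a type and more RNA per cell cannot be told apart.

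*Sgce* (ENSMUSG00000004631, minus strand, chr6:4674350-4747207) had 6.23, 6.60 and 6.85 CPM in Cre− and 35.6, 34.3 and 36.3 CPM in Cre+ libraries. The highest Cre− culture lay far below the lowest Cre+ culture, and the spread within each group was small (6.56 ± 0.312 and 35.4 ± 1.03 CPM, mean ± SD, n = 3). The ratio of summed counts, scaled to the summed library totals, was 5.43, with a counting interval of 5.17 to 5.72 (exact, 95%, which covers counting error only), and the log2 fold change was 2.43 (SE 0.08). *Sgce* ranked 3 by log2 fold change among all genes tested. No other annotated gene shares exonic bases with *Sgce*, and no other transcript matched it over 100 bases at 95% identity, so its reads have no near-identical copy to be split with.

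*Peg10*, a gene derived from a retrotransposon and needed in placenta, starts 99 bases from the start of *Sgce* on the plus strand (chr6:4747306-4760517). Its raw counts were 10, 4 and 6 in Cre− and 21, 18 and 32 in Cre+ libraries. Every Cre+ library was above every Cre− library, at levels of at most 0.313 CPM. The scaled ratio of summed counts was 3.17, with a counting interval of 1.91 to 5.49. An exact two-sided permutation test gave p = 0.1, the smallest that 3 libraries against 3 allow. With no filter on low genes, edgeR gave *Peg10* an adjusted p of 0.21. For each *Peg10* read there were 54.2, 152 and 102 *Sgce* reads in Cre− and 186, 177 and 114 in Cre+ libraries, and these ratios overlapped between the groups. Both paternally read genes at the divergent start had more reads in every Cre+ library, *Peg10* at a level below the filter.

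**Figure D1:**
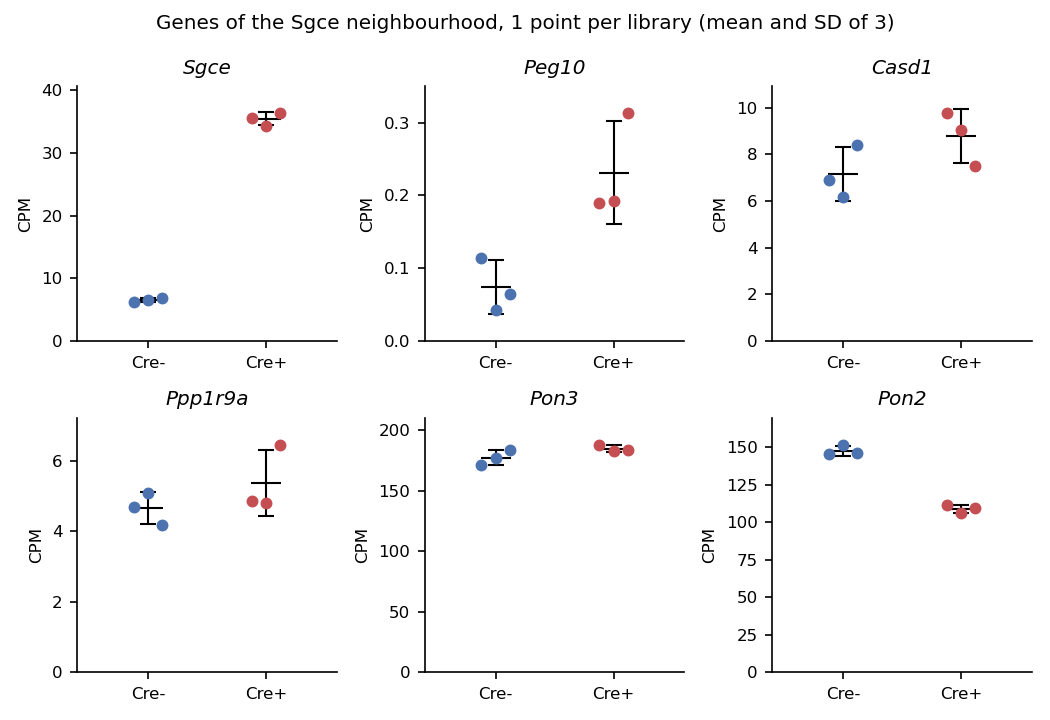
CPM of the 6 members of the Sgce neighbourhood in each library (points), with mean and SD of 3 libraries (black bars), each panel on its own linear axis from 0. CPM use TMM-normalized library sizes, except for Peg10, which was below the filter and uses library totals. Sgce and Peg10 are higher in every Cre+ library, Pon2 is lower in every Cre+ library, and Casd1, Ppp1r9a and Pon3 overlap.

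*Pon2* and *Pon3* encode paraoxonases, lactone-cleaving enzymes linked to protection against oxidative damage. They lie side by side on the minus strand with 7.86 kb between them, and of the pair *Pon2* alone was called between the groups. The RefSeq promoter windows of the pair (GRCm38.p6, minus strand, 250 bases before to 50 after the start) are shown because the neighbours differ in their response. Capitals mark CG dinucleotides, the sites of DNA methylation. Pon2 is chr6:5298291-5298590 and Pon3 is chr6:5256184-5256483.
Pon2: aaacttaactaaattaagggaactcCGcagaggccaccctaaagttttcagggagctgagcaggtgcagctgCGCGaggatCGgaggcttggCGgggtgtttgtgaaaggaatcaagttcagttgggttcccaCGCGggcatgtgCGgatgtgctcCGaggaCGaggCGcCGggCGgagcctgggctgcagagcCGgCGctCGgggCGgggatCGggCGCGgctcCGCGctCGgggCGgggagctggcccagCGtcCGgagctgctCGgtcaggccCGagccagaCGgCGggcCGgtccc
Pon3: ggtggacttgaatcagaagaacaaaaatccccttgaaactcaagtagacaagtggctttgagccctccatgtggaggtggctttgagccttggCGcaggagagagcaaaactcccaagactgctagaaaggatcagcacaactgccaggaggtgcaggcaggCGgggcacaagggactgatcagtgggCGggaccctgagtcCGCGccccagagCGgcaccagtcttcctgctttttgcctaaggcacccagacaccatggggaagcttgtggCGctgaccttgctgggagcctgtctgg

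The *Pon2* window holds 31 CG dinucleotides, at percentile 89.4 of the 32817 RefSeq windows, and the *Pon3* window holds 7, which is the median of all windows. The hexamer AGGTCA, the half-site of nuclear receptors such as REV-ERBα, was searched on both strands and stands in 16.3% of all windows. It is present in the *Pon3* window and absent from the *Pon2* window. Among the 33 members with a window, which do not include *Sgce* and *Peg10*, 4 hold AGGTCA (*Airn*, *Igf2*, *Igf2r* and *Pon3*). The E-box CACGTG, bound by the clock activators, stands in 7.15% of all windows and in those of 3 members (*Igf2r*, *Mcts2* and *Plagl1*). TGCCGC, part of the motif of the imprint-protecting factor ZFP57, stands in 11.6% of all windows and in those of 10 members, *Pon3* and *Casd1* among them. The longer RORE consensus, an A/T-rich stretch before the half-site, stands in 0.384% of windows and in 0 of these 33. Some windows lie far from the gene start used here, such as those of *Plagl1* (30328 bases) and *Mest* (9959 bases). These matches describe the letters of the windows only.

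*Pon2* (chr6:5264147-5298455) had 145.3, 151.7 and 146.0 CPM in Cre− and 111.3, 106.1 and 109.3 CPM in Cre+ libraries. No Cre+ library reached a Cre− library, and the difference was many times the spread within either group (147.7 ± 3.47 and 108.9 ± 2.59 CPM, mean ± SD, n = 3). The level fell by 26.2%, a log2 fold change of -0.44 (SE 0.05) with an adjusted p of 3.0e-05 in edgeR's quasi-likelihood test. *Pon2* shares 680 exonic bases with Gm44424 on the opposite strand, which had 0 to 4 counts per library.

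*Pon3* (chr6:5220852-5256286) had 171.4, 176.8 and 183.3 CPM in Cre− and 187.7, 182.2 and 183.8 CPM in Cre+ libraries. These ranges overlapped, and the log2 fold change of 0.06 (SE 0.05) had an adjusted p of 0.53 by edgeR. The third paraoxonase, *Pon1*, had 1 to 13 counts per library. Gm44250, on the same strand as *Pon3* and starting 0.366 kb past the end of *Pon3*, had 15.6, 14.4 and 14.6 CPM in Cre− and 11.7, 12.7 and 11.7 CPM in Cre+ libraries. Its Cre+ values were all below its Cre− values, but its log2 fold change of -0.31 (SE 0.09) did not pass edgeR's test (adjusted p = 0.072).

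*Casd1*, which encodes the enzyme that O-acetylates sialic acids, had 6.90, 6.15 and 8.40 CPM in Cre− and 9.75, 9.05 and 7.50 CPM in Cre+ libraries. The groups overlapped through the third library of each, and the log2 fold change of 0.29 (SE 0.14) had an adjusted p of 0.27 by edgeR. *Ppp1r9a*, which encodes the actin-binding scaffold neurabin-1, had 4.70, 5.09 and 4.19 CPM in Cre− and 4.85, 4.81 and 6.46 CPM in Cre+ libraries. It also overlapped, with a log2 fold change of 0.21 (SE 0.15, adjusted p = 0.52 by edgeR), or 0.05 without the third Cre+ library. These genes flank *Sgce* and *Peg10* on opposite sides, and neither of these nearest tested genes passed the test.

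Within 1000 kb on either side of the *Sgce* start, 39 genes are annotated, 34 had counts and 9 were tested. Of the 8 other than *Sgce*, 1 was called, *Pon2*, with a lower level, beside 5.07% of all genes tested (2.5% higher, 2.56% lower). The 4 tested genes that are not members gave log2 fold changes of -0.08 (*Gng11*), 0.07 (*Bet1*), 0.10 (*Asb4*) and -0.31 (Gm44250). None of these 4 was called by edgeR or voom. In edgeR 1 of them had an unadjusted p under 0.05, beside 19.1% of all genes tested. DESeq2 called 1, Gm44250, beside 7.75% of all genes tested. Among the genes below the filter, the imprinted *Calcr*, the calcitonin receptor gene, had 14, 34 and 15 counts in Cre− and 12, 11 and 2 in Cre+ libraries. The collagen gene *Col1a2* had 43, 27 and 28 against 20, 14 and 18 counts. Gm44121, whose start lies 23.7 kb beyond that of *Sgce*, had 1, 2 and 0 against 4, 4 and 10 counts. *Gngt1* had 6, 7 and 9 against 6, 0 and 3 counts. In CPM the groups of *Calcr*, *Col1a2* and *Gngt1* did not overlap, with lower Cre+ values, nor did those of Gm44121, with higher values. Among all genes below the filter with at least 30 counts, this held for 23.3% with lower and 2.52% with higher Cre+ values. Gm44121 had only 21 counts in total, so these shares do not cover it. *Tfpi2* (66, 65 and 81 against 100, 124 and 59 counts) and *Pdk4* (11, 2 and 12 against 11, 11 and 7), also listed as imprinted, overlapped.

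**Figure D2:**
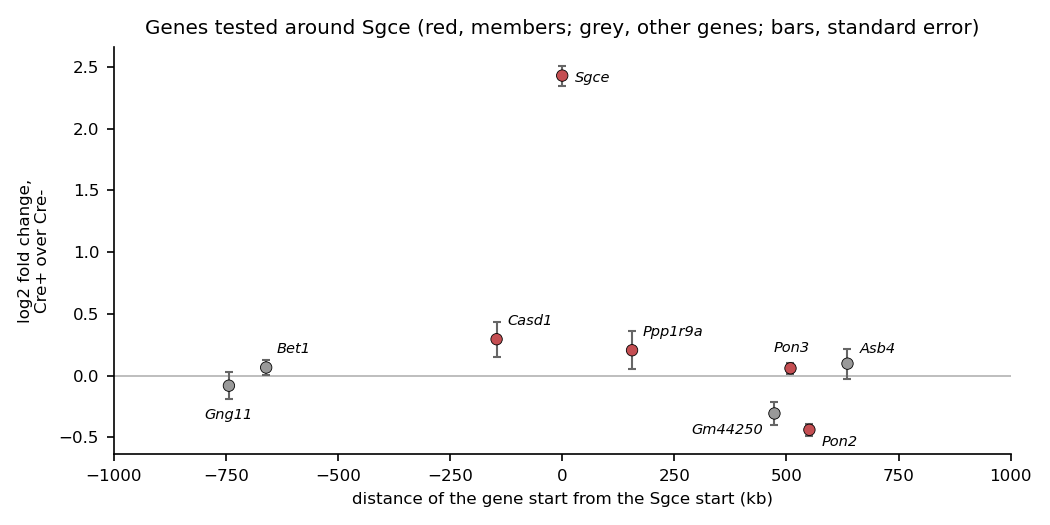
Log2 fold change, Cre+ over Cre−, with standard error (bars) of the 9 genes tested within 1000 kb of the Sgce start, against the distance of the gene start from the Sgce start in kb. Red points are members and grey points other genes. Sgce stands alone at 2.43, Pon2 and Gm44250 lie at -0.44 and -0.31, and the others lie between -0.08 and 0.29.

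Of the 14 tested members from other clusters, none was called by edgeR, 4 had an unadjusted p under 0.05 (*Copg2*, *Impact*, *Nap1l4* and *Igf2r*), DESeq2 called 1 (*Copg2*) and voom called 0. Over all genes tested, 19.1% had an unadjusted p under 0.05 and DESeq2 called 7.75%. Their log2 fold changes had a median of 0.07, beside 0.0023 over all genes tested. The groups did not overlap for 3 of the 14, *Copg2* and *Nap1l4* higher and *Mcts2* lower, beside 24.0% of all genes tested. With *Pon2* and the other Sgce neighbours added, 1 of 18 members other than *Sgce* was called (5.56% beside 5.07% of all genes), and 13 of the 18 had a log2 fold change above 0, beside 50.6% of all genes. Sorted by known allele, the median log2 fold change was 0.03 over the 5 paternal members other than *Sgce* and 0.12 over the 13 maternal ones.

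On a per-length scale (CPM per kb of exon), *Cd81* was the most abundant member, with a mean of 151.8 over the 6 libraries, followed by *Pon3* (53.4), *Nap1l4* (37.8), *Impact* (28.8) and *Pon2* (17.5). *Sgce* was 13th of the 19 with a mean of 1.98. *Kcnq1ot1* was lowest (0.0882). The transcripts of the members in these cultures thus spanned a wide range, with a tetraspanin and 2 paraoxonases among the highest.

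*Cd81* encodes a tetraspanin of the cell surface. It had 414.7, 459.6 and 444.5 CPM in Cre− and 419.8, 437.0 and 446.4 CPM in Cre+ libraries, with full overlap and a log2 fold change of -0.02 (SE 0.05, adjusted p = 0.89 by edgeR). *Nap1l4*, a histone chaperone gene of the same cluster, had 105.4, 116.1 and 114.0 CPM in Cre− and 119.9, 123.8 and 122.0 CPM in Cre+ libraries. Its groups were separate by a narrow margin, and the log2 fold change of 0.12 (SE 0.05) had an adjusted p of 0.19 by edgeR. The noncoding RNA *Kcnq1ot1*, which silences this cluster on the paternal chromosome, had 10.9, 6.21 and 6.73 CPM in Cre− and 9.52, 8.15 and 7.71 CPM in Cre+ libraries (log2 fold change 0.09, SE 0.18, adjusted p = 0.85 by edgeR). *Slc22a18*, a transporter gene, differed by 0.04 on the log2 scale (adjusted p = 0.89).

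*Impact*, which encodes an inhibitor of the translation kinase GCN2, had 136.1, 145.5 and 133.5 CPM in Cre− and 167.9, 144.1 and 158.8 CPM in Cre+ libraries. The second Cre+ library lay inside the Cre− range, and the log2 fold change of 0.18 (SE 0.06) did not pass edgeR's test (adjusted p = 0.088). *Copg2*, a subunit gene of the COPI coat, had 22.6, 25.7 and 18.8 CPM in Cre− and 25.9, 28.5 and 30.2 CPM in Cre+ libraries. Its groups were just separate, with a log2 fold change of 0.33 (SE 0.10, adjusted p = 0.074 by edgeR). *Copg2* shares 912 exonic bases with *Mest* on the other strand, and the kit does not mark strand, but *Mest* had only 9 to 19 counts per library.

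*Igf2r*, the receptor that carries lysosomal enzymes and takes up IGF2, differed by 0.16 (SE 0.07, adjusted p = 0.20 by edgeR). *Ube3a*, a ubiquitin ligase gene that is imprinted in neurons, differed by 0.12 (adjusted p = 0.55). On the other strand it shares exonic bases with 9330162G02Rik (8.71%, 112 to 200 counts), Gm44560 (9.82%, 0 to 2) and *Snhg14* (8.74%, 29 to 63). The level of *Ube3a* is therefore uncertain if shared reads were dropped. *Snrpn*, which encodes a splicing protein, differed by -0.26 (SE 0.18, adjusted p = 0.48) and overlapped. It shares 27.3% of its exonic bases with Gm38393 (0 to 26 counts), so its level is uncertain if shared reads were dropped. *Gnas*, the gene of the stimulatory G protein alpha subunit, was listed at only 2.62 to 3.604 CPM and differed by 0.20 (SE 0.17, adjusted p = 0.58). Of the 2632 bases of the last *Gnas* exons, 1469 are shared with Gm20721 on the other strand, which had 0 to 3 counts, so the level of *Gnas* is uncertain if shared reads were dropped.

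**Figure D3:**
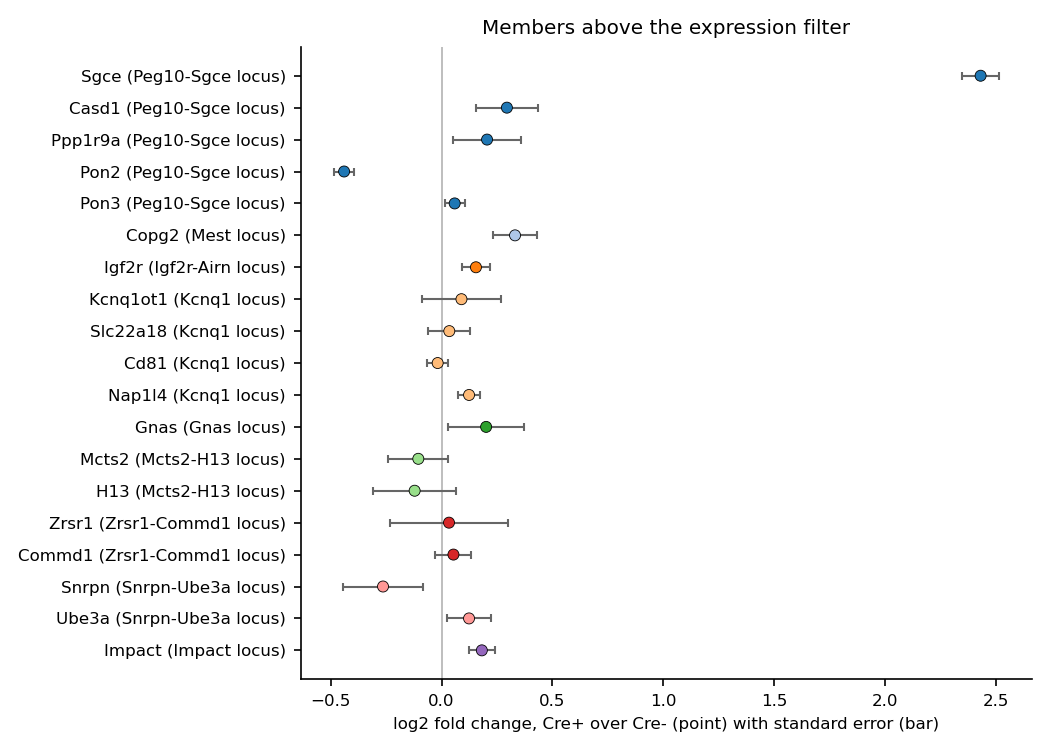
Log2 fold change, Cre+ over Cre− (points), with standard error (bars) of the 19 members above the expression filter, coloured and labelled by cluster. Sgce stands at 2.43 and Pon2 at -0.44, and the others lie between -0.26 and 0.33.

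In the *H13* and *Commd1* loci a retrogene read from the paternal allele lies inside a host gene, and the spread between cultures was uneven. *Zrsr1*, a splicing factor retrogene, had 36.4, 19.98 and 43.5 CPM in Cre− and 29.2, 21.0 and 52.0 CPM in Cre+ libraries. In both groups the highest library stood far above the lowest, while the group means were close (log2 fold change 0.03, SE 0.27, adjusted p = 0.97 by edgeR). The coefficient of variation of *Zrsr1* was 36.2% in Cre− and 47.2% in Cre+ libraries, at percentiles 98.7 and 99.7 of all genes tested. Its host *Commd1*, which acts in copper handling and endosomal sorting, varied by 1.24% and 5.83% and had 18.0 to 20.1 CPM throughout. The 2 genes share 412 exonic bases on opposite strands, and *Commd1* showed none of the spread of *Zrsr1*.

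*H13*, the gene of signal peptide peptidase, had 37.5, 77.1 and 44.7 CPM in Cre− and 52.8, 39.9 and 53.8 CPM in Cre+ libraries. The second Cre− library alone stood above the other 5, and the log2 fold change was -0.12 (SE 0.19, adjusted p = 0.80 by edgeR), or 0.25 without that library. Its retrogene *Mcts2* had 4.76, 4.79 and 5.40 CPM in Cre− and 4.64, 4.51 and 4.74 CPM in Cre+ libraries. *Mcts2* was lower in every Cre+ library by a narrow margin (log2 fold change -0.10, SE 0.14, adjusted p = 0.75 by edgeR). *Kcnq1ot1* also varied widely among Cre− libraries (32.5%, at percentile 98.0), through the first library. *Sgce* itself varied by 4.76% and 2.92%, and *Pon2* by 2.35% and 2.38%.

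**Figure D4:**
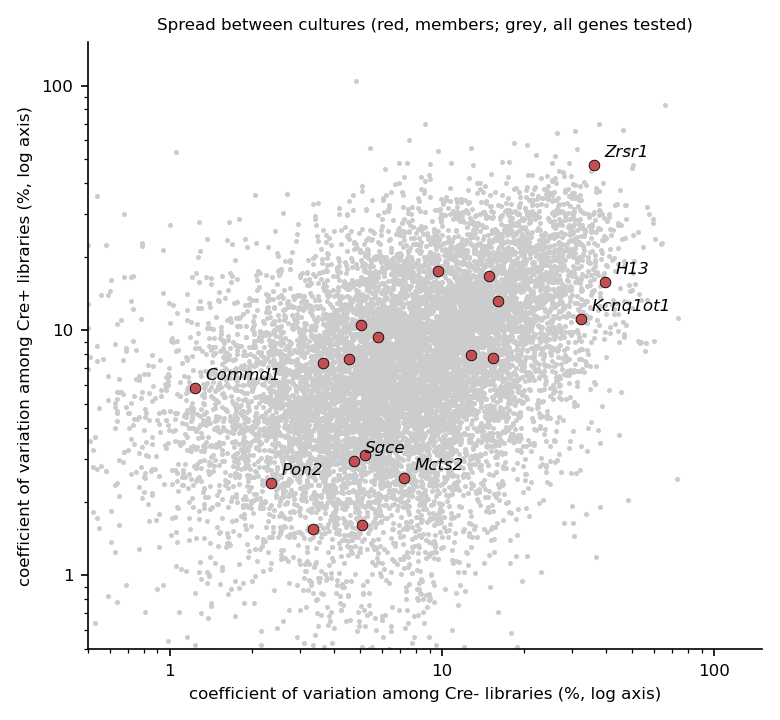
Coefficient of variation (SD over mean of 3 libraries, %) among Cre− libraries against that among Cre+ libraries, on log axes, for all 11429 genes tested (grey) and the 19 members (red). Zrsr1 is at the upper right edge, at 36.2% and 47.2%, H13 and Kcnq1ot1 varied more among Cre− (39.7% and 32.5%) than among Cre+ libraries (15.8% and 11.1%), and Sgce and Pon2 are among the less variable genes.

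The 21 members below the filter include much of the growth-controlling set of imprinted genes, and none exceeded 2.00 CPM in any library. Here raw counts are given. Genes of this level were lower in Cre+ libraries as a whole. Among all 12157 genes below the filter with at least 30 counts in total, the groups did not overlap with lower Cre+ values for 23.3% and with higher Cre+ values for 2.52%, the median ratio of Cre+ to Cre− was 0.657, and 75.7% had a ratio below 1. These genes summed to 3020 to 3910 CPM in Cre− and 2490 to 2630 CPM in Cre+ libraries. Of the 18 members at this count, 15 had a ratio below 1 and the median ratio was 0.704. The groups did not overlap for 6 members with lower Cre+ values (33.3%) and for 1 with higher, *Peg10* (5.56%). A fall among these members is thus to be read against a background that also leans lower, while *Peg10* went against it.

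In the *Dlk1-Meg3* cluster, a locus of growth regulators and noncoding RNAs, *Dlk1*, a Notch ligand relative of immature cells, had 14, 24 and 24 counts in Cre− and 6, 0 and 4 in Cre+ libraries. The noncoding *Meg3* had 106, 32 and 43 counts against 18, 25 and 18, and *Rian*, a host of small nucleolar RNAs, had 102, 67 and 77 against 53, 34 and 55. In CPM all 3 were lower in every Cre+ library, at ratios of 0.144 (counting interval 0.0657 to 0.283), 0.301 (0.221 to 0.404) and 0.515 (0.416 to 0.635). These intervals cover counting error only and leave out the spread between cultures. *Mirg*, a microRNA host of the same stretch, had 18, 6 and 16 against 4, 3 and 12 counts and overlapped. All 4 members of the cluster had ratios below 1, 3 of them with no overlap. Among all genes below the filter with at least 30 counts, 75.7% had a ratio below 1. For 23.3% of these genes the Cre+ values were lower without overlap. *Meg3* in the first Cre− library was far above the other 2, which were still above all Cre+ libraries.

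*Ndn*, the necdin gene, which is best known in neurons, had 129, 92 and 184 counts in Cre− and 95, 56 and 49 in Cre+ libraries. The ratio was 0.44, with a counting interval of 0.37 to 0.523, which leaves out the spread between cultures. Its neighbour *Magel2* had 0 to 2 counts per library. With no filter, edgeR gave adjusted p-values of 0.014 for *Ndn*, 0.025 for *Meg3* and 0.041 for *Dlk1*, in a fit that called 3.49% of 43842 genes. With the filterByExpr filter the values were 0.047, 0.063 and 0.072, in a fit that called 4.22% of 19507 genes. The calls of these 3 thus depended on the filter, and none of them was tested with the filter used here. The summed neuronal markers were also lower, with 2.82 to 3.84 CPM in Cre− and 2.05 to 2.16 CPM in Cre+ libraries, and so were those of fibroblasts and mural cells, with 2.31 to 3.96 and 1.28 to 1.89 CPM. Of these lists, 7 of 7 and 8 of 9 markers had a lower mean in Cre+ libraries. Among all genes below the filter with at least 30 counts, 75.7% had a ratio below 1. The astrocyte and oligodendrocyte sums overlapped, but 5 of 7 and 6 of 9 of their markers also had a lower mean. Of the 5 endothelial markers, *Flt1* was higher and 4 had lower means. The part of these cell types in the lower counts of *Dlk1*, *Meg3* and *Ndn* was not tested.

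*Igf2*, the fetal growth factor gene, had 14, 15 and 16 counts in Cre− and 11, 10 and 12 in Cre+ libraries, and its neighbour *H19*, a noncoding RNA read from the other allele, had 15, 21 and 17 against 19, 10 and 15. In CPM the *Igf2* groups were separate, and those of *H19*, counted above as not overlapping, came within rounding of each other at 0.171 CPM. These counts are so low that an edgeR fit without a filter gave adjusted p-values of 0.72 and 0.80. As counted, the pair were thus both near the limit of detection at this depth. *Igf2* shares 62.8% of its exonic bases with Gm49394 on the same strand, which had 0 counts in every library. The level of *Igf2* is therefore uncertain if shared reads were dropped.

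In the *Peg3* cluster, *Usp29*, a ubiquitin protease gene, had 78, 29 and 54 counts against 24, 31 and 22, *Peg3*, a zinc-finger gene, had 39, 8 and 14 against 13, 12 and 15, and *Zim1* had 0 to 7. All 3 overlapped between the groups. The growth suppressors *Cdkn1c* (15, 63 and 45 against 46, 78 and 52 counts), *Grb10* (76, 43 and 84 against 55, 52 and 96) and *Plagl1* (20, 19 and 10 against 0, 11 and 36) overlapped as well. *Plagl1* ranged from 0 to 36 counts within the Cre+ group alone. *Cdkn1c* shares 30.7% of its exonic bases with Gm44732 on the other strand, which had 0 counts. Its level is likewise uncertain if shared reads were dropped.

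The remaining members below the filter also overlapped. They were *Mest* (9 to 19 counts), *Nnat* (6 to 32), *Kcnq1* (11 to 28), *Phlda2* (0 to 16), *Slc22a3* (8 to 45) and the antisense RNA *Airn* (20 to 48), which silences the paternal *Igf2r*. *Zim1*, *Phlda2* and *Magel2* had under 30 counts in total, so a difference in them was not detectable at this depth.

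**Figure D5:**
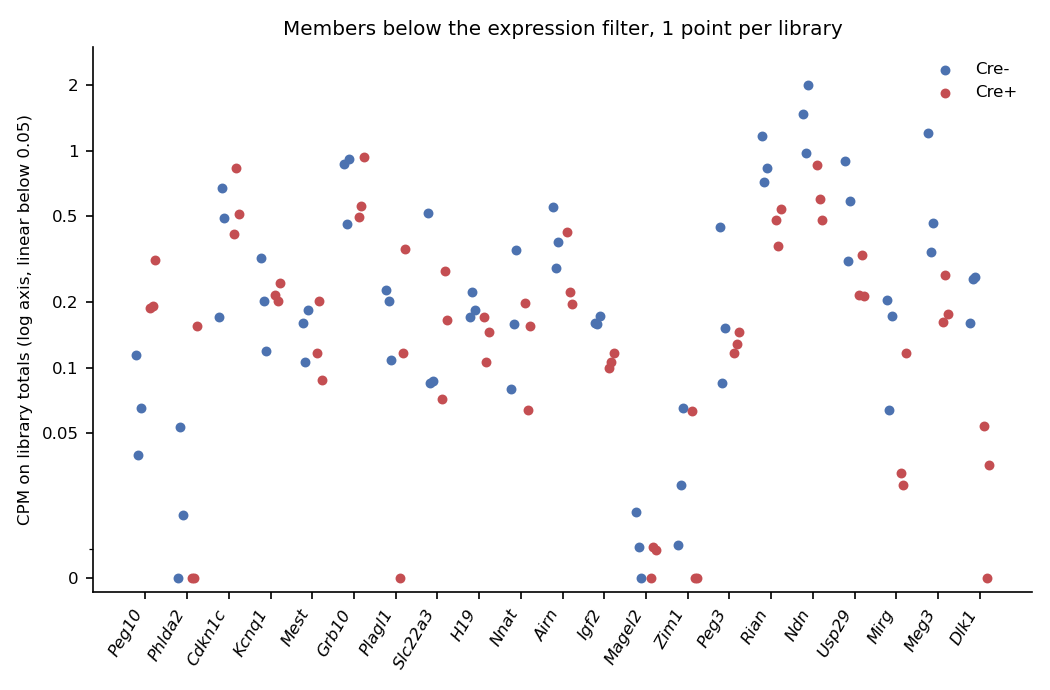
CPM on library totals of the 21 members below the filter, 1 point per library (blue, Cre−; red, Cre+), ordered by the ratio of group means, on an axis that is logarithmic above 0.05 CPM and linear below. Peg10 is at the left end, with all Cre+ points above all Cre− points, and Meg3 and Dlk1 are at the right end, with all Cre+ points below.

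Of 46 further imprinted genes, 17 were tested, 12 with a log2 fold change above 0 and 5 below. None was called by edgeR or voom, 4 had an unadjusted p under 0.05 (*Atp10a*, *Blcap*, *Peg13* and *Qpct*) and DESeq2 called 1, *Atp10a*, beside 19.1% and 7.75% of all genes tested. *Atp10a*, a lipid flippase gene of the *Snrpn-Ube3a* region, had 5.66, 4.61 and 5.04 CPM in Cre− and 3.19, 3.85 and 3.51 CPM in Cre+ libraries. It was lower in every Cre+ library and just missed edgeR's threshold (log2 fold change -0.54, SE 0.15, adjusted p = 0.053). *Asb4*, beyond the paraoxonases, had 5.84 to 5.87 against 6.03 to 6.51 CPM (log2 fold change 0.10, adjusted p = 0.74).

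Of 26 genes that set, keep or erase imprints, 21 were tested and 2 were called by edgeR (9.52%, beside 5.07% of all genes tested), both higher in Cre+. *Dnmt3a*, the de novo DNA methyltransferase that sets imprints in the germ line, had 254.4, 271.4 and 275.5 CPM in Cre− and 343.6, 334.2 and 358.2 CPM in Cre+ libraries. The groups were well separate, with a log2 fold change of 0.37 (SE 0.05, adjusted p = 1.8e-04 by edgeR). *Atrx*, a chromatin remodeler gene, had 51.1, 44.4 and 40.7 against 57.0, 53.4 and 54.1 CPM and was called narrowly (log2 fold change 0.27, SE 0.08, adjusted p = 0.049 by edgeR). The maintenance methyltransferase gene *Dnmt1* differed by -0.0041 on the log2 scale (SE 0.07, adjusted p = 0.99), and the imprint-protecting *Zfp57* had 4 to 18 counts per library. *Zfp445* and *Trim28*, which act with it, gave log2 fold changes of -0.04 and -0.16 and were not called.

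Of 24 genes of the sarcoglycan and dystrophin complex, in which the *Sgce* product takes part, 15 were tested. None was called by edgeR, voom or DESeq2, beside 5.07% (edgeR) and 7.75% (DESeq2) of all genes tested. An unadjusted p under 0.05 in edgeR was found for 3, *Dag1* and *Pomt2* among them, beside 19.1% of all genes tested. The partner sarcoglycan gene *Sgcb* had 24.0, 26.1 and 23.3 CPM in Cre− and 22.6, 21.8 and 27.1 CPM in Cre+ libraries (log2 fold change -0.04, adjusted p = 0.87 by edgeR). The dystroglycan gene *Dag1* had 28.6, 31.7 and 29.9 against 31.8, 35.6 and 35.9 CPM (log2 fold change 0.20, SE 0.07, adjusted p = 0.15 by edgeR). *Sgca*, which *Sgce* most resembles, had 4 to 24 counts per library, and *Sgcd* had 2 to 4. *Sgcb* was the sarcoglycan gene named here, other than *Sgce*, that passed the filter. Below the filter, *Dtna* (94, 53 and 77 against 28, 30 and 21 counts) was lower in every Cre+ library in CPM. So were *Sntb1* (32, 54 and 50 against 8, 8 and 13) and *Lama2* (54, 26 and 41 against 13, 11 and 12). This held for 23.3% of all genes below the filter with at least 30 counts. *Sspn* (7, 2 and 5 against 8, 16 and 23) had a higher mean but overlapped.

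Around the members of the other clusters, within 500 kb, 90 further genes were tested and 4 were called by edgeR (4.44%). *Tnfrsf26*, a death receptor relative 79.6 kb from *Nap1l4*, had 511.7, 521.5 and 492.8 CPM in Cre− and 623.2, 570.0 and 629.2 CPM in Cre+ libraries (log2 fold change 0.26, SE 0.05, adjusted p = 0.0038). *Csnk2a1*, a casein kinase subunit gene, rose by 0.29 on the log2 scale (edgeR, adjusted p = 0.037) and *Rbck1*, a subunit gene of the linear ubiquitin ligase, had a log2 fold change of -0.23 (adjusted p = 0.038), at 442.6 and 336.8 kb from *H13*. *Lsp1*, an actin-binding protein gene of leukocytes at 117.3 kb from *H19*, had one of -0.20 (adjusted p = 0.044). The share called near the other clusters was close to the 5.07% of all genes.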

How the data were processed

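The deposited counts are unscaled read counts for each Ensembl gene. The authors aligned to GRCm38 with STAR 2.7.9a and counted with featureCounts 2.0.3, by the submitters' processing notes; the study's methods name older versions of both. The strand setting is not given in the sources used here. The deposited CPM are these counts per 1000000 of the library total, and the deposited FPKM are the CPM per kb of gene; the authors made both, and they were read only to check units. Coordinates, overlaps and biotypes came from GENCODE M21 (54870 of 55487 genes with the same position).

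After removal of 356 ribosomal RNA genes, those over 1 CPM in 4 or more libraries entered edgeR 4.0.16 (quasi-likelihood, TMM, no covariates, R 4.3.3), with Benjamini-Hochberg adjustment over all 11429 genes and a threshold of 0.05. This called 579 genes, 286 higher (2.5%) and 293 lower (2.56%). SE is the log2 fold change over the square root of F. CPM use TMM-normalized sizes, or library totals below the filter. Counting intervals are exact binomial on the summed counts of each group and leave out the spread between cultures. The labels number 3 cultures a group and do not name the pups, so p-values measure the spread between these libraries.

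The alternatives were DESeq2 1.42.0, limma 3.58.1 voomWithQualityWeights, other scalings and filters, a replicate block and leaving out each library. Members and lists were chosen with earlier results of these data known. Named are all members, called genes of the further lists, and genes next to a member. Others were chosen after their values were seen. These included *Pon1*, Gm44121, *Col1a2*, *Calcr*, *Tfpi2*, *Pdk4*, *Sgcb*, *Dag1*, *Dnmt1*, *Zfp57*, *Zfp445*, *Trim28* and the low sarcoglycan genes. *Gngt1*, *Atp10a*, *Peg13*, *Qpct*, *Pomt2*, *Dtna*, *Sntb1*, *Lama2* and *Sspn* were among them too, as were the markers *Trem2*, *Csf1r*, *Tmem119* and *Flt1*. Near-identical transcripts came from blastn 2.17.0. Plots were made with matplotlib 3.10.9. Some genes of the lists are not reported here by name.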

Additional observations from a re-analysis of the deposited data

How the results depend on the processing

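The count of genes called was 579. It was 886 with DESeq2's own test and 1528 with no filter, where 851 were higher and 677 lower, and 321 to 435 when 1 library was left out. Members called other than *Sgce*, which was not tested, were 6 with no filter (*Copg2*, *Dlk1*, *Impact*, *Meg3*, *Ndn* and *Pon2*; 7 past the threshold with *Sgce*), and otherwise 1 or 2. With no filter the log2 fold changes shifted by a median of 0.08. *Sgce* ran from 2.39 to 2.51 and *Pon2*, called under each alternative run, from -0.46 to -0.36. *Copg2* was called with DESeq2 and without the second Cre− library, and *Impact* without the second Cre+ library. With 1 library left out, the log2 fold change ran from -0.061 to 0.38 for *Kcnq1ot1*, from -0.041 to 0.094 for *Slc22a18*, from -0.062 to 0.016 for *Cd81*, from -0.32 to 0.25 for *H13* and from -0.41 to 0.29 for *Zrsr1*. The sign turned for *Kcnq1ot1* without Cre− library 2, Cre− library 3 or Cre+ library 1, for *Slc22a18* without Cre− library 3 or Cre+ library 3, for *Cd81* without Cre− library 2 or Cre+ library 1, for *H13* without Cre− library 2 or Cre+ library 2, and for *Zrsr1* without Cre− library 2 or Cre+ library 3. *Cd81* also turned to 0.060 with no filter and to 0.025 with filterByExpr. Of 266 single values, 247 kept their sign and side of the threshold. The cause of these changes was not tested.

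Libraries with the same number did not deviate together (r = 0.0144, -0.0205 and -0.0445). With 3 libraries a group, centred within the group, such values cannot decide whether same-numbered cultures were made together. The labels do not name the pups. A fit with the replicate number as a block called 430 genes and, of the members other than *Sgce*, 1, *Pon2*. Not every library correlated best with its own number. Counts under about 30 limit what can be said of *Zim1*, *Phlda2* and *Magel2*.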
